A study of Mus musculus with 9 samples.

Results

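The enzymes that lengthen and desaturate fatty acids were examined in the liver of diabetic mice with fatty liver disease, with and without insulin treatment, and of normal mice. The genes were Elovl1, Elovl2, Elovl3, Elovl5 and Elovl7 (elongases), Fads1, Fads2 and Fads3 (front-end desaturases and their relative) and Scd2 (a stearoyl-CoA desaturase). They were found by matching the accession of each array probe, without its version, to the gene symbols. This gave 10 of 55681 probes and 9 of 20972 gene symbols, with a pair of probes for Elovl1 and a single probe for each of the other genes. All 10 probes passed the filter on dim probes, as did 26277 of the 55681, though that of Elovl7 passed only through the diabetic groups.

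Fatty acids of diet or of new synthesis are extended at the endoplasmic reticulum by a cycle of reactions whose opening, rate-limiting step is catalysed by an ELOVL protein, each with its own range of chain lengths. Front-end desaturases place double bonds near the carboxyl end, and by alternating with the elongases they turn the plant-derived linoleic and alpha-linolenic acids into arachidonic, eicosapentaenoic and docosahexaenoic acid. The liver is a main site of this conversion, and the stearoyl-CoA desaturases of the same membrane make monounsaturated from saturated fatty acids.

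The arrays came from 3 groups of 3 male C57B/6 J mice, all aged 20 weeks. STAM-NON mice were untreated STAM mice. These received streptozotocin soon after birth, which destroys insulin-secreting cells, and a high-fat diet after weaning, and they develop steatohepatitis and liver tumours. STAM-INS mice were STAM mice injected under the skin with insulin glargine, a long-acting insulin analogue. Normal mice had regular chow and none of these treatments, so that drug, diet and diabetes differ together between STAM and Normal. Whether the frozen pieces of liver held tumour is not given in the sources used here. In whole liver, fewer cells of a type and less RNA per cell cannot be told apart.

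Values are log2 of the spot signal less the array's own 75th percentile (centred log2 signal), so that 0 marks the 75th percentile and a difference of 1 is a doubling. Levels of different probes are not compared. The share of spots well above background ran from 46.2% to 65.0% over the 9 arrays and was highest in STAM-INS replicate 1 (65.0%), STAM-NON replicate 3 (63.1%) and STAM-NON replicate 1 (59.3%), against at most 51.1% elsewhere. All 6 STAM arrays lay on slide 1 and all 3 Normal arrays on slide 2, so slide and group cannot be told apart in the comparisons with Normal, while the comparison of STAM-INS with STAM-NON lies within 1 slide. The 6 hepatocyte markers (Alb, Apoa1, Ttr, Cps1, Tat and Serpina1a) were well above background on all 9 arrays.

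The stretches before the transcribed part are shown for Elovl5 and Fads2, the members of the polyunsaturated route that were higher in untreated STAM liver than in Normal liver. Each window runs from 250 bases before the gene start to 50 bases after it, 5′ to 3′ on the strand of the gene, from RefSeq on the build GRCm38.p6. Capitals mark matches to any of 5 motifs searched on both strands, which are CACGTG (an E-box), CCAAT (read as ATTGG on the other strand), GGGCGG (a GC box), TCACNCCAC (a form of the sterol regulatory element) and AGGTCA (a nuclear receptor half-site).
Elovl5, chr9:77917115-77917414, plus strand: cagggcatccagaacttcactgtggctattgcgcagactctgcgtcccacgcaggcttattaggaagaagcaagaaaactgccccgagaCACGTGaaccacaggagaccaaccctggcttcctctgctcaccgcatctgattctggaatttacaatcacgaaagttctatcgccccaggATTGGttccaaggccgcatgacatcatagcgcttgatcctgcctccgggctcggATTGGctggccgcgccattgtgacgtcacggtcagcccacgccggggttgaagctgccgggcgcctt
Fads2, chr19:10101454-10101753, minus strand: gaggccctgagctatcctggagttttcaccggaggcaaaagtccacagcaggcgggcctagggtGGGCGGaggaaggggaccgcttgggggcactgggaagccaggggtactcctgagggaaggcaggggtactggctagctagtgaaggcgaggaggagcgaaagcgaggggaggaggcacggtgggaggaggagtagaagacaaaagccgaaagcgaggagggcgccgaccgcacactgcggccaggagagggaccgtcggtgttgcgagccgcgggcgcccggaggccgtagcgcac

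The Elovl5 window held an E-box that starts 161 bases before the gene start and a pair of CCAAT boxes at 71 and 17 bases, none overlapping another motif. The Fads2 window held a single GC box at 186 bases. Of the 9 genes, 6 were matched to windows of the same kind (8 windows), and Elovl3, Fads1 and Scd2 were not. The E-box was in 1 of these 8 windows and in 7.15% of all 32851 windows of the reference, the CCAAT box in 3 of 8 and in 37.4%, the GC box in 6 of 8 and in 35.7%, and the half-site in 1 of 8 and in 16.3%. The sterol regulatory element was in 0 of the 8 windows and in 1.24% of all windows. In the order of the reference, Fads3, Fads2 and Fads1 are consecutive protein-coding genes on chromosome 19, and so are Scd3, Scd2, Scd4 and Scd1.

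STAM-NON was compared with Normal to see what differs in the untreated disease model. Elovl5, Fads2 and Scd2 were higher in STAM-NON, by 2.34-fold, 2.16-fold and 5.54-fold. Elovl7 was higher too, but was well above background on only 1 of 3 Normal arrays, so its Normal level is not fully measured and no fold is given. Thus 4 of the 10 probes passed an adjusted p of 0.05, against 16.1% of all 26277 tested probes, and those 4 were higher (6.3% of all) and 0 lower (9.76% of all). Elovl7 counts among these 4 although its probe was tested only through the STAM groups, where it is high. The median difference of the 9 genes was 0.53, with 8 of 9 above 0, against a median of -0.13 over all tested probes, of which 36.82% were above 0. Relative to that median the differences were 1.36 for Elovl5, 1.25 for Fads2 and 2.60 for Scd2. The direction of calls over the whole array depended on the scaling. Of the 4220 probes past the threshold 1655 were higher, whereas with arrays centred on all 10 E1A spike-in probes 1558 of 2298 were higher, with a median of 0.01, and 1 member probe passed. Centred on the 7 of these probes that were above background on all arrays, a choice made after seeing the data, 2733 of 3186 were higher, with a median of 0.18, and 5 member probes passed. Those member probes were higher under either scaling. The methods' t-test with adjustment called 0 of the 10, and 30 probes of the whole array. None of the 4 calls held with the row of the array on its slide as a block, or with the 3 arrays of most detected spots left out together, which leaves STAM-NON with 1 array.

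Insulin-treated and untreated STAM mice were set against each other to ask about the treatment. In limma, 0 of the 10 probes passed, as did 24 of all tested probes (0.0913%, with 0.0114% higher and 0.0799% lower). At an unadjusted p under 0.05 there were 3 member probes, Elovl2, Elovl3 and Elovl5, each with the higher mean in STAM-INS, against 8.78% of all probes. The methods' t-test gave 2 member probes before adjustment, against 5.7% of all, and 0 after it. The median difference of the 9 genes was 0.26, with 6 of 9 above 0, against 0.03 and 54.85% over all probes. Centred on all spike-in probes, the median over all probes was -0.12, and Scd2, the middle gene of the 9, fell from 0.26 to 0.12.

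STAM-INS was also compared with Normal, which asks what differs from normal liver under treatment, and this comparison uses the same 3 Normal arrays as that of STAM-NON. Elovl2, Elovl5, Fads1, Fads2 and Scd2 were higher in STAM-INS, by between 1.75-fold for Fads1 and 6.63-fold for Scd2. These 5 of 10 probes stand beside 13.9% of all probes past the threshold (5.16% higher, 8.73% lower), and 0 member probes were lower. The median difference of the 9 genes was 0.99, against -0.09 over all probes. Centred on all spike-in probes, 2 member probes passed and 938 of 2201 calls on the whole array were higher, and centred on the 7 bright ones these were 3 member probes and 1501 of 2211, in place of 1356 of 3650. The member probes were again higher. With adjustment, the methods' t-test called 4 of the 10, and 2828 probes of the whole array.

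**Figure D1:**
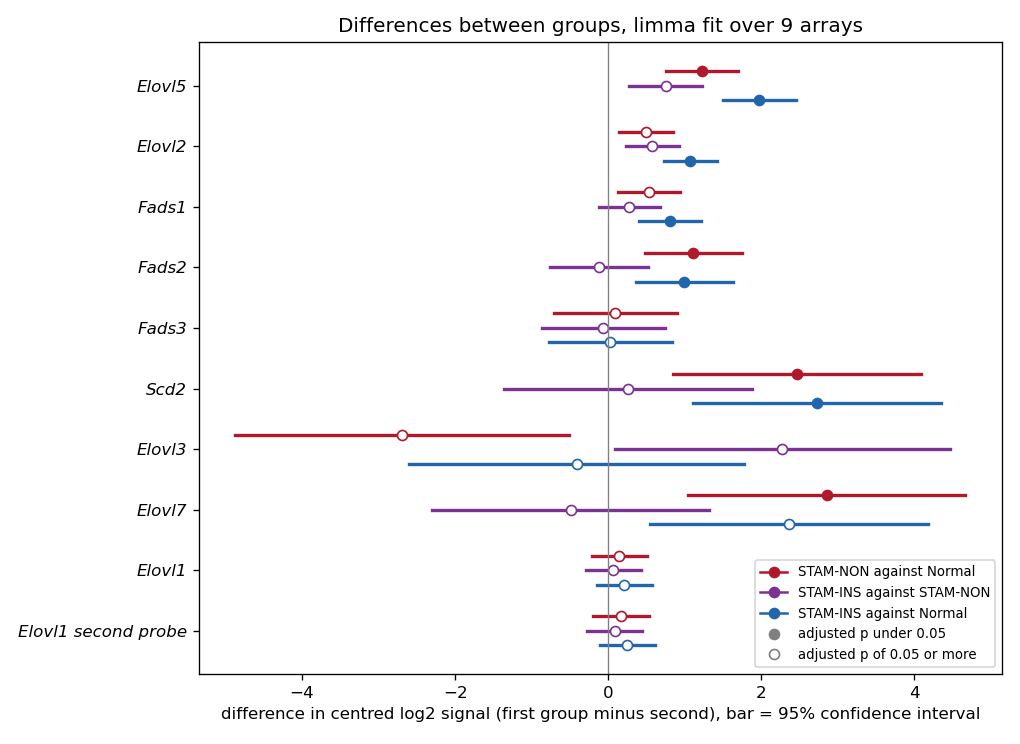
Differences in centred log2 signal for the 10 probes in the 3 comparisons, with the later-named group subtracted, and 95% confidence intervals from limma. Filled points have an adjusted p under 0.05. The filled points all lie above 0 and none belongs to STAM-INS against STAM-NON.

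Elovl5, which extends polyunsaturated fatty acids of intermediate length, had the smallest adjusted p of the members in both comparisons with Normal. Its centred log2 signal was 6.53, 5.94 and 5.79 in STAM-NON, 6.62, 7.03 and 6.84 in STAM-INS and 4.71, 5.05 and 4.82 in Normal (replicates 1 to 3 in that order, as in all lists below). Each STAM array was thus above each Normal array, and each STAM-INS array above each STAM-NON array, though the nearest pair (6.62 and 6.53) lay close together. The share of all probes with groups so separated was not counted, here or for the genes below. STAM-NON exceeded Normal by 1.22 ± 0.21 (SE, n = 3 and 3, adjusted p = 0.0129), and STAM-INS by 1.97 ± 0.21 (adjusted p = 0.00246). The difference of 0.75 ± 0.21 between STAM-INS and STAM-NON had an unadjusted p of 0.00634 and an adjusted p of 0.432, with an interval from 0.27 to 1.22. Both differences from Normal passed when any 1 of the 6 arrays was left out, at 1.005 to 1.37 and 1.87 to 2.08. With the row of the array on its slide as a block, STAM-NON against Normal no longer passed (1.54, adjusted p = 0.174), nor did it without the 3 arrays of most detected spots (1.08, adjusted p = 0.0916). In the fit with the slide row, STAM-NON was all in row 1 and Normal all in row 2. They are linked through STAM-INS, with replicate 1 in row 1 and the others in row 2. Its difference between STAM-INS and STAM-NON thus rests on STAM-INS replicate 1 alone. For STAM-INS against Normal it gave the same values as the fit without STAM-INS replicate 1.

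Elovl2, which acts on the longest polyunsaturated fatty acids on the way to docosahexaenoic acid, had the same order of group means. Its signal was 6.03, 6.23 and 5.75 in STAM-NON, 6.78, 6.39 and 6.58 in STAM-INS and 5.55, 5.48 and 5.50 in Normal. The 3 groups did not overlap. STAM-INS was higher than Normal by 1.07 ± 0.15 (adjusted p = 0.00553), and this passed in each of the 6 fits without 1 array (0.98 to 1.17). STAM-NON against Normal stood at 0.50 ± 0.15 (adjusted p = 0.0584), and lay between 0.38 and 0.62 without 1 array. It passed only without STAM-NON replicate 3 (adjusted p = 0.0486), the other 5 fits giving adjusted p from 0.105 to 0.142, and was 0.20 (adjusted p = 0.745) with the slide row as a block. STAM-INS against STAM-NON gave 0.58 ± 0.15, with an unadjusted p of 0.00489 and an adjusted p of 0.405.

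**Figure D2:**
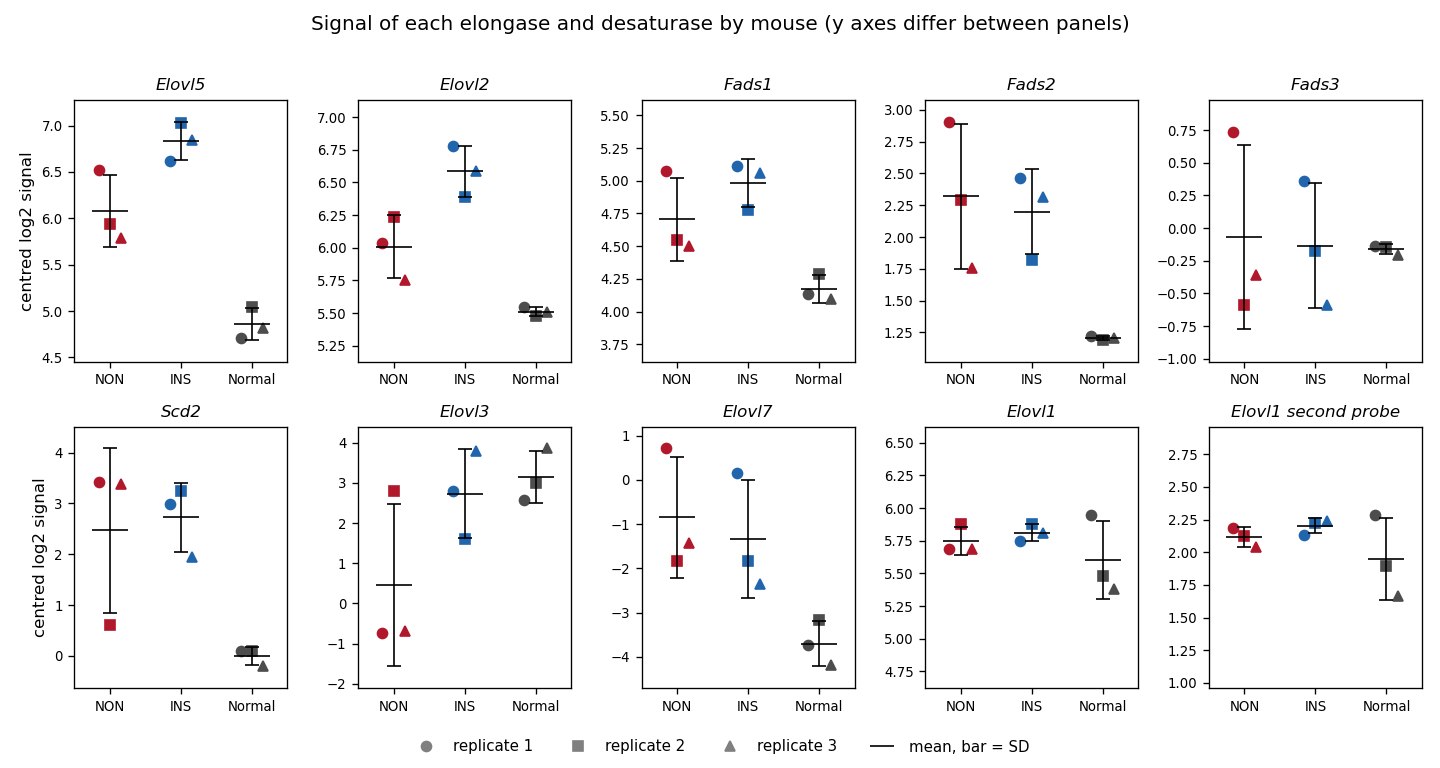
Centred log2 signal (y axis, with its own range in each panel) of each probe in the 3 mice of each group. Points are mice, shaped by replicate number, and black bars are the mean with SD. Normal mice lie close together for Fads2 (1.19 to 1.22), while STAM-NON replicate 2 stands apart from the other two STAM-NON mice for Scd2 and Elovl3.

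Fads2 carries out the opening desaturation of linoleic and alpha-linolenic acid and is regarded as the slow step of the pathway. Its signal was 2.90, 2.29 and 1.76 in STAM-NON, 2.46, 1.82 and 2.31 in STAM-INS and 1.22, 1.19 and 1.21 in Normal. The lowest STAM array was above the highest Normal array, and the STAM groups overlapped each other. STAM-NON was higher than Normal by 1.11 ± 0.28 (adjusted p = 0.0337) and STAM-INS by 0.99 ± 0.28 (adjusted p = 0.0493), while STAM-INS and STAM-NON differed by -0.12 (interval -0.76 to 0.52). The call for STAM-NON passed in 2 of the 6 fits without 1 array and was lost without STAM-NON replicate 1 (0.82, adjusted p = 0.0741) and without Normal replicate 1, 2 or 3 (1.11 to 1.12). The call for STAM-INS was lost in all 6, at 0.86 to 1.18 and adjusted p from 0.0670 to 0.126. With the slide row as a block neither passed, at 0.72 (adjusted p = 0.524) for STAM-NON and 0.86 (adjusted p = 0.126) for STAM-INS. The latter values are those without STAM-INS replicate 1, so they are no separate check.

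Fads1 desaturates the products of Fads2 and an elongase to arachidonic and eicosapentaenoic acid. It measured 5.07, 4.55 and 4.50 in STAM-NON, 5.11, 4.77 and 5.06 in STAM-INS and 4.13, 4.29 and 4.09 in Normal. All 6 STAM arrays were again above the Normal arrays. STAM-INS was higher than Normal by 0.81 ± 0.18 (adjusted p = 0.0231), which passed in 1 of 6 fits without 1 array, that without STAM-INS replicate 2 (0.91), and stood at 0.74 to 0.87 in the fits in which STAM-INS replicate 1 or 3 or any Normal replicate was left out. STAM-NON against Normal gave 0.53 ± 0.18 (adjusted p = 0.0699) and STAM-INS against STAM-NON 0.28 ± 0.18 (adjusted p = 0.694). Without STAM-NON replicate 1 these were 0.35 and 0.46, and without STAM-NON replicate 3 the latter was 0.17. With the slide row as a block STAM-NON against Normal was 0.34 (adjusted p = 0.650). The call for STAM-INS was then lost (0.74, adjusted p = 0.0648), with the same values as without STAM-INS replicate 1.

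Fads3, the third gene of this cluster, whose best described substrates are sphingoid bases, had a mean ± SD over 3 mice of -0.07 ± 0.70 in STAM-NON, -0.14 ± 0.48 for STAM-INS and -0.16 ± 0.04 for Normal. The single arrays were 0.73, -0.59 and -0.36 in STAM-NON, 0.36, -0.18 and -0.59 in STAM-INS and -0.14, -0.15 and -0.21 in Normal. The STAM arrays lay on both sides of Normal, with STAM-NON replicate 1 highest. STAM-NON against Normal gave 0.09 with an interval from -0.71 to 0.89, and STAM-INS against Normal 0.03 with an interval from -0.77 to 0.83. As a description of a pair chosen after its values were seen, Fads2 minus Fads3 on the same array exceeded its Normal mean by 0.75 to 1.51 in STAM-NON and by 0.63 to 1.53 in STAM-INS, while the Normal arrays lay within -0.03 and 0.04 of it.

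Scd2 makes monounsaturated fatty acids and is the isoform better known from brain, adipose and immature tissues, whereas Scd1 is the main one of adult liver. Scd2 measured 3.43, 0.60 and 3.38 in STAM-NON, 2.98, 3.25 and 1.95 in STAM-INS and 0.09, 0.10 and -0.20 in Normal. All STAM arrays were above Normal, but STAM-NON replicate 2 was only 0.60 above the Normal mean. The other two STAM-NON mice were 3.43 and 3.38 above it, and the STAM-INS mice between 1.96 and 3.25. STAM-NON was higher than Normal by 2.47 ± 0.71 (adjusted p = 0.0486) and STAM-INS by 2.73 ± 0.71 (adjusted p = 0.0395). Without STAM-NON replicate 2 the former was 3.40 (adjusted p = 0.00344). It did not pass in the other 5 fits without 1 array, with 1.99 without STAM-NON replicate 1, 2.02 without STAM-NON replicate 3 and 2.37 to 2.52 without Normal replicate 1, 2 or 3. The call for STAM-INS was lost without any 1 of its 6 arrays (2.47 to 3.12, adjusted p from 0.0558 to 0.124). The high STAM-NON arrays were among the 3 with the most detected spots, and with those 3 left out STAM-NON, then replicate 2 alone, exceeded Normal by 0.60 (adjusted p = 0.564).

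Its neighbour Scd1 did not pass in any comparison, with -0.75 for STAM-NON against Normal (adjusted p = 0.182), 1.31 for STAM-INS against STAM-NON (adjusted p = 0.452) and 0.56 for STAM-INS against Normal (adjusted p = 0.324). Scd1 measured 6.74, 6.88 and 8.16 in STAM-NON, 8.16, 8.69 and 8.86 in STAM-INS and 7.85, 7.88 and 8.30 in Normal. On STAM-NON replicates 1 and 2 it was thus below all Normal arrays, which for Scd2 held on no STAM array. Without 1 array, Scd1 in STAM-NON against Normal ranged from -1.20 (adjusted p = 0.0352, without STAM-NON replicate 3) to -0.49 (adjusted p = 0.427, without STAM-NON replicate 1), and with the slide row as a block it was -0.13 (adjusted p = 0.944).

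Elovl3, which elongates saturated and monounsaturated fatty acids and whose liver transcript is known to vary with time of day and to be higher in males, had its lowest arrays in STAM-NON. It measured -0.74, 2.79 and -0.67 in STAM-NON, 2.79, 1.61 and 3.80 in STAM-INS and 2.59, 2.997 and 3.86 in Normal. STAM-NON replicates 1 and 3 stood at -3.89 and -3.82 relative to the Normal mean, whereas replicate 2 was within the range of the Normal mice. With that mouse included, STAM-NON against Normal gave -2.69 ± 0.95 (adjusted p = 0.0854), and without it -3.85 (adjusted p = 0.00845). The other 5 fits without 1 array gave -2.97 to -2.09, none of them past the threshold. Both low arrays were among the 3 with the most detected spots, and with those 3 left out the difference, then of replicate 2 alone, was -0.36 (adjusted p = 0.862). STAM-INS against STAM-NON gave 2.27 ± 0.95, with an unadjusted p of 0.0429 and an adjusted p of 0.557, and 3.44 without STAM-NON replicate 2 (adjusted p = 0.130) but -0.0836 (adjusted p = 0.987) without those 3 arrays. STAM-INS and Normal overlapped, with a difference of -0.41 (interval -2.60 to 1.77). The hour of sampling is not given in the sources used here.

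Elovl7, which acts on saturated fatty acids of long chain, was dim in Normal liver, where it was well above background on 1 of 3 arrays, and well above background on all 6 STAM arrays. It measured 0.72, -1.84 and -1.42 in STAM-NON, 0.17, -1.83 and -2.36 in STAM-INS and -3.74, -3.18 and -4.19 in Normal. The STAM groups did not overlap Normal, and the highest array of each was replicate 1. With the 2 dim Normal arrays at their measured signal, STAM-NON was higher than Normal by 2.85 ± 0.79 (adjusted p = 0.0450), and STAM-INS against Normal gave 2.36 ± 0.79 (adjusted p = 0.0803). The sizes of both rest on signals that were not well above background in Normal, so neither is a fully measured size. The probe was tested only because it passed the filter in the STAM groups, where it is high. The call for STAM-NON passed in 1 of 6 fits without 1 array, that without STAM-NON replicate 2 (3.35). It was lost without STAM-NON replicate 1 (2.07, adjusted p = 0.108), without STAM-NON replicate 3 (3.14) and without Normal replicate 1, 2 or 3 (2.61 to 3.12). Both high arrays were among the 3 with the most spots above background, and with those 3 left out together STAM-NON, then 1 array, exceeded Normal by 1.86 (adjusted p = 0.135) and STAM-INS by 1.61 (adjusted p = 0.0404). With the slide row as a block the difference of STAM-NON from Normal was 0.59 (adjusted p = 0.832).

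Elovl1, the elongase of saturated very long chains that serve membranes and sphingolipids, did not pass in any comparison. Its brighter probe measured 5.69, 5.87 and 5.69 in STAM-NON, 5.74, 5.88 and 5.81 in STAM-INS and 5.95, 5.48 and 5.38 in Normal. The groups overlapped, and the widest spread was that of the Normal mice (SD 0.30). Differences were 0.15 for STAM-NON against Normal (interval -0.21 to 0.51), 0.06 for STAM-INS against STAM-NON (-0.30 to 0.42) and 0.21 for STAM-INS against Normal (-0.15 to 0.57). The dimmer probe gave 0.17, 0.08 and 0.25 for the same comparisons, so the pair did not disagree in direction. With spike-in centring the difference between STAM-INS and STAM-NON turned to just below 0 for both probes.

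**Figure D3:**
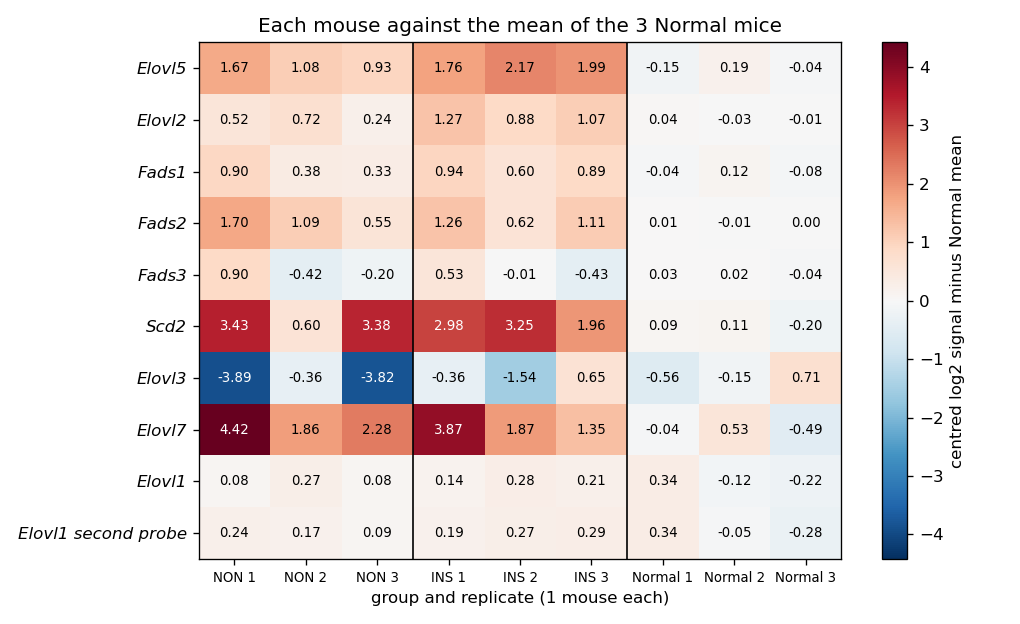
Centred log2 signal of each mouse minus the mean of the 3 Normal mice, for each probe (rows) and mouse (columns), red above and blue below that mean. Elovl5, Elovl2, Fads1, Fads2, Scd2, Elovl7 and both Elovl1 probes are above the Normal mean in all 6 STAM mice. The Elovl1 probes are so by at most 0.29, less than in Normal replicate 1 (0.34). The share of all probes with this trait was not counted, and the Elovl7 probe was tested only through the STAM groups, where it is high. Elovl3 stands at -3.89 and -3.82 in STAM-NON replicates 1 and 3.

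The other genes of the pathway were counted in 6 lists, with 48 of 55 genes tested. STAM-NON against Normal had 3 higher, 4 lower and 41 that did not pass, and STAM-INS against Normal had 7 higher, 5 lower and 36 that did not pass. Over all tested probes 16.1% and 13.9% passed in these comparisons. The 7 of 48 in STAM-NON lay near the share of the whole array, and the 7 higher with the 5 lower in STAM-INS lay above it. The 48 were the brightest probe of each gene, in lists chosen with earlier results known, so the shares are not fully alike. STAM-INS against STAM-NON had 0 of 48 past the threshold. Left out 1 at a time, the 6 arrays of a comparison ended most of these calls. Acsl3 and Mlxipl in STAM-NON and Acsl3 and Nr1d2 in STAM-INS passed in all 6 fits, Ppara in STAM-INS in 2, and each of the others in at most 1.

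Among the other elongases and desaturases (6 of 8 genes tested), Elovl6, which extends palmitate to stearate, was higher in STAM-INS than in Normal by 1.02 ± 0.25 (adjusted p = 0.0330) and stood at 0.81 in STAM-NON (adjusted p = 0.0577). The list's median difference was -0.17, 0.31 and 0.30 in STAM-NON against Normal, STAM-INS against STAM-NON and STAM-INS against Normal. Of the 9 partners of the elongation cycle and electron donors, Hacd4, a dehydratase of the family that acts in the cycle, was higher in STAM-NON by 1.09 (adjusted p = 0.0456), and its second probe was higher in both STAM groups, by 1.21 and 1.03. Hacd1, of the same family, and Cyb5a, the cytochrome that feeds electrons to the desaturases, were each lower in STAM-INS than in Normal (difference -0.69). The ketoacyl reductase Hsd17b12 and the enoyl reductase Tecr did not pass in any comparison, with differences from Normal of -0.39 and -0.10 in STAM-NON.

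Of the 7 tested acyl-CoA synthetases and thioesterases, Acsl3 was higher than Normal in STAM-NON (0.97 ± 0.16, adjusted p = 0.0125) and in STAM-INS (0.95 ± 0.16, adjusted p = 0.0102). Its signal was 0.71, 0.56 and 0.69 in STAM-NON, 0.71, 0.92 and 0.29 in STAM-INS and -0.25, -0.34 and -0.36 in Normal. The lowest STAM array was thus above the highest Normal array. Acsl5 was higher in STAM-INS than in Normal by 0.54. The brighter probe of Acsl1 did not pass in STAM-INS (-0.90, adjusted p = 0.0565), whereas a dimmer one did (-1.16, adjusted p = 0.0441). Both activate long-chain fatty acids to acyl-CoA, the form in which they enter elongation. Of the 6 tested genes that place fatty acids into phospholipids, Mboat1 was higher in STAM-INS than in Normal by 1.52, and the remodelling enzymes Lpcat3 and Mboat7 did not pass in any comparison.

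Of the 7 genes of the peroxisomal step that completes docosahexaenoic acid, Abcd2, a peroxisomal importer of fatty acyl-CoA, was higher than Normal by 1.83 in STAM-NON and 1.92 in STAM-INS, and the thiolase and sterol carrier gene Scp2 was lower in STAM-NON (-0.52). Abcd2 was well above background on 2 of 3 Normal arrays, so it was tested only through the STAM groups. The sizes of its differences are therefore not fully measured. The medians of this list against Normal were -0.46 and -0.45. Of the 13 regulators, Mlxipl (ChREBP, a glucose-responsive activator of lipogenesis) was lower than Normal in STAM-NON (-1.18 ± 0.17, adjusted p = 0.00831) and in STAM-INS (-0.62, adjusted p = 0.0425). A second, dimmer probe of Mlxipl did not pass, at -0.30 and -0.25. Scap and Rxra were lower in STAM-NON (-0.44 and -0.61), though another probe of Rxra gave 0.01. In STAM-INS, Insig1 and Srebf2, both of the sterol-sensing system, were higher by 0.81 and 0.74, and Ppara and Nr1d2 were lower (-0.86 and -1.63). Another probe of Srebf2 gave 0.72 with an adjusted p of 0.102, and the other two tested probes of Ppara also passed (-0.89 and -0.83). Srebf1, the classical activator of Fads and Elovl genes, did not pass, with 0.31 for STAM-NON and 0.14 for STAM-INS against Normal.

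**Figure D4:**
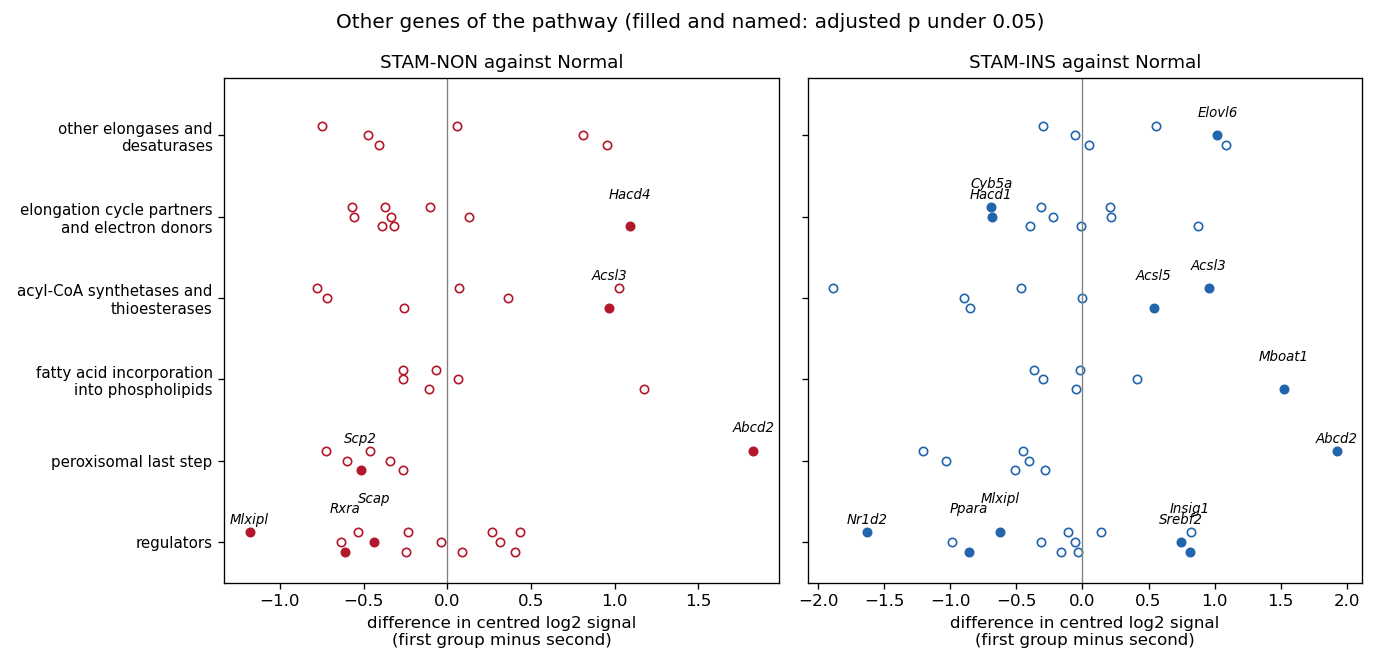
Differences in centred log2 signal against Normal for the tested genes of 6 pathway lists, in STAM-NON (left) and STAM-INS (right). Each point is a gene, filled and named where its adjusted p was under 0.05. Acsl3 and Abcd2 are filled above 0 and Mlxipl below 0 on both sides. Abcd2 was well above background on 2 of 3 Normal arrays.

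Genes with the most similar pattern were sought among 13377 tested genes by the root mean square difference over the 9 arrays after each gene's own mean was taken off. For Elovl5 these were Tubb2a (0.24), Lrfn3 (0.25) and Tubb2a-ps2 (0.26), the first and last being near copies whose probes may share transcripts. For Elovl2 they were Gfod2 (0.16), Irgm1 (0.19) and Cldn2 (0.20), for Fads1 Itga3 (0.12), Ift81 (0.16) and Nup98 (0.17), and for Fads2 Lrrc14b (0.17), Srxn1 (0.19) and Zfp677 (0.20). Scd2 and Elovl7 had more distant neighbours. For Scd2 they were Shc2 (0.44), Mki67 (0.44) and Gp9 (0.45), and for Elovl7 Tubb2b (0.39), Hr (0.46) and Plat (0.49). Mki67, a marker of dividing cells, measured 0.86, -1.25 and 1.40 in STAM-NON, 0.09, 1.60 and -0.52 in STAM-INS and -1.85, -1.62 and -1.70 in Normal. STAM-NON replicate 2 was the lowest of its group for Mki67, a trait that the search for a pattern like that of Scd2 selects for. Any link of Scd2 with dividing cells was not tested. For Elovl3, searched after its values were seen, the nearest genes were Mup21 (0.73), Mup6 (0.83) and Klhl32 (0.85), the Mup genes being near copies of each other.

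Markers of other cells also differed between the groups. Of 5 macrophage markers, Clec4f and Trem2 were higher than Normal in both STAM groups, by 0.97 and 2.93 in STAM-NON. The summed macrophage signal, in multiples of the 75th percentile, was 177, 102 and 198 in STAM-NON, 88.0, 222 and 127 in STAM-INS and 50.7 to 85.0 in Normal. Within STAM-NON, replicate 2 had the lowest macrophage sum and the lowest Scd2. Its cholangiocyte, endothelial, stellate and fibroblast, adipocyte and brown adipose sums were also the lowest of that group, but not its hepatocyte and lymphocyte sums. Within STAM-INS, the lowest macrophage sum was that of replicate 1 (Scd2 2.98) and the lowest Scd2 that of replicate 3 (1.95). Of 5 tested cholangiocyte markers, Krt7, Sox9 and Spp1 were higher in STAM-NON and Sox9 in STAM-INS, with summed signals of 3.89 to 9.43 in STAM-NON, 3.79 to 5.69 in STAM-INS and 1.87 to 3.20 in Normal. Spp1 gave the largest part of these sums (mean centred log2 signal 1.97, 1.67 and 0.46). Krt7 was well above background on 1 of 3 Normal arrays, so it was tested only through the STAM groups. The part of these cells in the differences of the elongases and desaturases was not tested.

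For the remaining markers, Lyve1 was the 1 of 6 endothelial genes past the threshold, in STAM-NON, with summed endothelial signals of 28.7 to 48.6 in STAM-NON, 22.9 to 38.7 in STAM-INS and 31.1 to 36.2 in Normal. The stellate and fibroblast list had 0 of 6 past the threshold, at 76.6 to 118 in STAM-NON, 59.4 to 71.0 in STAM-INS and 67.0 to 75.1 in Normal. Most of each of these sums was Dcn (mean centred log2 signal 6.55, 5.92 and 6.05), so they stand mainly for that gene. By gene, the median difference from Normal was 0.52 in STAM-NON, with 5 of 6 above 0, and 0.03 in STAM-INS, with 3 of 6 above 0. Of the hepatocyte markers Cps1 was lower in both STAM groups, and the summed hepatocyte signal was 2753 to 3618 in STAM-NON, 3344 to 3682 in STAM-INS, and 3908 to 4219 for Normal. Lymphocyte sums were 2.15 to 3.54, 2.60 to 4.53 and 2.75 to 3.27 in the same order of groups, with 0 of 2 tested genes past the threshold. The adipocyte sums were 0.53 to 4.15, 0.20 to 1.16 and 0.23 to 0.74, with 0 of 1 tested gene past the threshold and Lep above background on no array. Among brown adipose markers, which matter for Elovl3 since brown fat also makes it, Cidea was higher in STAM-NON than in Normal, where it was well above background on 1 of 3 arrays, Ucp1 was above background on 1 STAM-NON array and Dio2 on none. The summed signal of that list was 63.1, 5.80 and 5.92 in STAM-NON, 3.13 to 3.85 in STAM-INS and 1.92 to 2.18 in Normal. Most of the 63.1 of STAM-NON replicate 1 was Cidea (centred log2 signal 5.86), so the sum there stands mainly for that gene. Most of each Normal sum was Ppargc1a (mean centred log2 signal 0.90), so the sums of the groups stand for different genes. Elovl3 was -0.74 on STAM-NON replicate 1 and 2.59 to 3.86 in Normal. The part of brown fat in the differences of Elovl3 was not tested.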

How the data were processed

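Total RNA of snap-frozen mouse liver was labelled with Cy3 and hybridised to 1-colour Agilent SurePrint G3 Mouse arrays, with 1 array per mouse and 3 mice per group. The labels and the study's methods name different extraction kits. The deposited files, written by Feature Extraction 11.5.1.1 (version per the labels), give the intensity of each spot after background subtraction, with no normalization between arrays. The array design used the build mm9. The study's methods name no normalization or test for the arrays. Groups and replicate numbers came from the sample labels.

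Control spots and spots flagged as outliers (161 to 217 per array) were left out, spots of 1 probe were averaged, and values were centred as described above. No spot was saturated. A RefSeq table of GRCm38.p6 named 27656 of 55681 probes, and was used for names and gene order only. Testing was limited to probes with a share of 0.5 or more of their spots well above background on all 3 arrays of a group. The test was two-sided limma (version 3.58.1, lmFit then eBayes, R 4.3.3, 6 residual degrees of freedom) over all 9 arrays, with Benjamini-Hochberg adjustment over the 26277 probes and a threshold of 0.05. Adjusted p-values are from this fit. With 3 arrays a group, the number of arrays limits the precision, and the spread is that between mice. The brightest probe stands for a gene. The code was tested on simulated data. Alternatives were other background corrections, scalings, filters, fits and tests, blocks, and leaving out arrays. The normexp alternative used median spot signals. The genes and lists were chosen with earlier results of these data known. Members were all named, list genes where they passed or where the sentence concerns them, and neighbours by the likeness rule given. Python 3.11.15 and matplotlib 3.10.9 read promoters and drew figures.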

Additional observations from a re-analysis of the deposited data

How the results depend on the processing

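For STAM-NON against Normal, 4 member probes passed as reported, and the number was 0 with no filter on dim probes, with the adjusted methods' t-test, with the slide row as a block and with the 3 arrays of most detected spots left out together (chosen after seeing the data), 1 with only the 6 arrays compared or with centring on all 10 spike-in probes (E1A), and 1 to 5 without 1 array at a time, with 1 without STAM-NON replicate 1 or any Normal replicate. For STAM-INS against Normal, 5 passed as reported, and the number was 3 with centring on the median or on the 7 bright spike-in probes (chosen after seeing the data), 2 with centring on all spike-in probes, with no filter or with the slide row as a block, and 2 to 3 without 1 array. The other alternatives, the replicate block below excepted, gave counts within 1.5 times those reported. For STAM-INS against STAM-NON the count was 0 in all fits except the unadjusted methods' t-test, with 2. Replicate numbers did not pair the mice (correlations of deviations from -0.29 to 0.15), and with the replicate block 3, 0 and 3 member probes passed in STAM-NON against Normal, STAM-INS against STAM-NON and STAM-INS against Normal. On the whole array the counts of calls ranged from 15 to 7534, 1 to 1498 and 572 to 8810 in that order. The cause of these changes was not tested.

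The direction of 32 differences turned, none of them past the threshold as reported or under the alternative. For STAM-INS against STAM-NON, the brighter Elovl1 probe gave -0.0794 with spike-in centring (-0.0845 on the bright probes), -0.0045 with the slide row and -0.0275 without the 3 arrays, and the dimmer one -0.0596 (-0.0647) with it. With the slide row, Elovl6 gave -0.26, Elovl7 1.02, Fads2 0.14 and Fads3 0.43. Without the 3 arrays, Elovl3 gave -0.0836 in place of 2.27, and Fads3 0.20. Leaving out 1 array gave ranges of -0.0176 to 0.44 for Elovl6, -1.25 to 0.29 for Elovl7, -0.40 to 0.17 for Fads2, -0.32 to 0.34 for Fads3 and -0.67 to 0.74 for Scd2. For STAM-NON against Normal, centring on the median gave -0.0220 and -0.00080 for the Elovl1 probes and -0.0753 for Fads3, which was -0.65 with the slide row, -0.42 without the 3 arrays and -0.31 to 0.35 without 1. For STAM-INS against Normal, Fads3 was -0.16 centred on the median, -0.22 with the slide row and without the 3 arrays, and -0.22 to 0.26 without 1, and Elovl3 was -0.95 to 0.15 without 1. Of the 1132 alternatives for single genes, 788 kept both direction and side of the threshold. Slide as a block was not run, since no slide holds STAM and Normal arrays together. For STAM-INS against Normal, the slide row as a block gave the same values as leaving out STAM-INS replicate 1, so these are 1 check. Where leaving out arrays left a group with 1, that array was taken to vary like the others. Dim probes such as Elovl7 in Normal liver lie near the background.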
